A study of Mus musculus with 42 samples.

Results

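The glutathione S-transferases described here are 10 genes chosen by name: 3 of the alpha class (Gsta2, Gsta3, Gsta4), 3 of the mu class (Gstm1, Gstm2, Gstm3), the pi class neighbours Gstp1 and Gstp2 on chromosome 19, the theta class gene Gstt1 and the kappa class gene Gstk1. They are 10 of the 54446 genes in the count table, and all 10 were among the 15574 genes with enough counts to be tested. Liver RNA came from 42 female APOE*3-Leiden mice, which carry a human apolipoprotein E variant as a transgene, with 1 library per mouse. In Chow32w (chow, n = 10) the mice stayed on maintenance chow. In WTD32w (WTD, n = 16) they ate a Western-type diet with 1% cholesterol, 15% cocoa butter and 40.5% sucrose by weight, first for 3 weeks of run-in and then for 32 weeks, and 0.05% sodium cholate was added from week 22. In WTD&Atorvastatin32w (atorvastatin, n = 16) the mice ate the same diet, with the run-in free of drug. After the run-in it also held atorvastatin, an inhibitor of cholesterol synthesis, at 3.0 mg/kg/day and from week 5 at 4.5 mg/kg/day. The diet-fed mice were 8 to 14 weeks old when the diet began. All groups carry the transgene and all mice are female, so no group shows these genes in males or in mice without the transgene, and every library is from the endpoint.

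Glutathione S-transferases join the tripeptide glutathione to electrophilic compounds, which makes drugs, toxins and products of lipid oxidation water-soluble, and the conjugates are then pumped out of the cell and trimmed to mercapturic acids. The alpha, mu, pi and theta enzymes work in the cytosol as dimers, while the kappa enzyme sits in mitochondria and peroxisomes. The liver is rich in these proteins, and many of their genes are known targets of NRF2, the transcription factor that answers electrophiles, or of CAR and PXR, the nuclear receptors that answer foreign compounds.

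The promoters of Gsta3, Gstm1 and Gstm3 are shown because Gsta3 fell most on WTD, Gstm3 rose most and Gstm1 had the highest level. Each runs from 250 bases before to 50 bases after the RefSeq start site (assembly GRCm38.p6), written along the gene's own strand. Capitals mark a form of the core of the antioxidant response element, the sequence through which NRF2 acts, searched only as TGACNNNGC on both strands.
Gsta3, chr1:21240335-21240634, plus strand: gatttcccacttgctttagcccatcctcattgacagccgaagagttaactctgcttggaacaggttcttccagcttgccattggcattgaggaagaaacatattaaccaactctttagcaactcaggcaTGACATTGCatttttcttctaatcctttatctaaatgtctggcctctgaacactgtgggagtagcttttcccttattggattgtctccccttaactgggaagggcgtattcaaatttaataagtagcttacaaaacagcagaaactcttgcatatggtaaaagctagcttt
Gstm1, chr3:108017924-108018223, minus strand: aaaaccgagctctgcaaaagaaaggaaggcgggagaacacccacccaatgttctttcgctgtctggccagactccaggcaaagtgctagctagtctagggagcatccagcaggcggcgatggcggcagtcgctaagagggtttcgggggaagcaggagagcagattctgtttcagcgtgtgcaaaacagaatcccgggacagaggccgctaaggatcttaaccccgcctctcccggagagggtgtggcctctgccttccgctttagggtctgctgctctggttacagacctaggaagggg
Gstm3, chr3:107969125-107969424, minus strand: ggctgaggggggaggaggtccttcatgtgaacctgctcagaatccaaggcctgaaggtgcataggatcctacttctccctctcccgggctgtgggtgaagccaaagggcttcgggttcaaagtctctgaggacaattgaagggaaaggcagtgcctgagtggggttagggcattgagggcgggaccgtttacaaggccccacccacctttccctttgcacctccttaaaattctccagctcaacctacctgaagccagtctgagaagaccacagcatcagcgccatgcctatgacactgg
The RefSeq and GENCODE starts are 4 bases apart for Gsta3, 0 for Gstm1 and 109 for Gstm3. A promoter was found in the table for 9 members, all except Gsta4. For Gsta2 the 2 starts are 8643 bases apart, for Gstp2 3802 and for Gstt1 853, so these windows lie away from the GENCODE start. The distances are 33 bases for Gstm2, 73 for Gstp1 and 0 for Gstk1. Of these 9, only Gsta3 held the antioxidant core as searched, as TGACATTGC starting at position -121 from the start site, against 12.4% of all 32851 promoters. Other forms of this core were not searched. The windows of Gstp1 and Gstp2 hold the similar letters TGAGTCAGC, whose share among all promoters was not counted. The letters TATAAA were found only in Gsta2, on the opposite strand (13.6% of all promoters). CAAAGTCCA, a form of the HNF4 site, was in 0.475% of all promoters and a palindromic HNF1 consensus in 0.00913%, and neither was in any of the 9. These letters do not overlap each other's matches, and the windows hold no distal elements.

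By the files' build (GRCm38), Gstm1 (chr3:108012255-108017973), Gstm2 (chr3:107981702-107986453) and Gstm3 (chr3:107963696-107969283) lie side by side on the minus strand. Gstp1 (chr19:4035407-4037985) and Gstp2 (chr19:4040285-4046023) are neighbours as well. Gsta2 (chr9:78331018-78355788) and Gsta4 (chr9:78182774-78209349) share a chromosome, but Gsta3 (chr1:21240589-21265661) does not lie with them. Gstt1 is at chr10:75783813-75798584 and Gstk1 at chr6:42245935-42250447. All 10 are protein-coding, and the counts cover their exons, untranslated parts included. Some members are so alike that read pairs cannot always be assigned. The coding sequences of Gstp1 and Gstp2 were 98.1% identical, and 41.8% of the 150-base windows of the Gstp1 transcript occurred unchanged in Gstp2 or the pseudogene Gstp-ps. For Gstp2 this share was 49.4%. Gsta2 was 97.6% identical to Gsta1 and 98.5% to Gm10639, and 26.8% of its windows were shared, so the values of Gsta2, Gstp1 and Gstp2 are uncertain in this respect. In Gstm3, 3.44% of windows were shared with Gm8834, and in the other 6 members none was. Between Gstm1 and Gstm3 the coding identity was 79.9%, and between Gsta2 and Gsta3 it was 75.4%.

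Counts on genes summed to between 15661381 and 36224054 read pairs in a library. Mice carry the names of the labels, AZ for chow and Gen for both diet-fed groups. In 8 libraries (3 chow, 4 WTD and 1 atorvastatin) more than 20% of the genes with a mean of 1 to 2 CPM (counts scaled to a common library size) had no count at all, up to 59.7%, which touches Gstp2 most. The liver label matched the markers: the summed level of 8 hepatocyte markers had a median of 125064 CPM on chow (range 110592 to 160367), 67871 on WTD (53161 to 106159) and 107429 with atorvastatin (62529 to 128849). Of these 8 markers WTD lowered 8, and 5 were higher with atorvastatin than on WTD. Markers of cholangiocytes (8 of 8 higher on WTD), macrophages (7 of 8) and stellate cells and fibroblasts (6 of 8) moved the other way. Their summed levels ranged from 78.6 to 156 CPM on chow, 183 to 855 on WTD and 223 to 610 with atorvastatin for cholangiocytes. For macrophages these ranges were 371 to 560, 2291 to 4205 and 1678 to 2966 CPM, and for stellate cells and fibroblasts 348 to 631, 1005 to 2535 and 874 to 2345 CPM. Of 6 sinusoidal endothelial markers, 1 was higher and 2 were lower on WTD, with sums of 228 to 333, 184 to 306 and 212 to 328 CPM. Of 7 T and B cell markers edgeR called 0 in any comparison (0 to 45.6, 8.00 to 23.7 and 10.8 to 17.2 CPM), while 1 was higher on WTD at an unadjusted p under 0.05 and by DESeq2 and limma-voom. No marker lacked counts throughout a group. In whole liver, fewer cells of a type and less RNA per cell cannot be told apart, and the part of these shifts in the members' changes was not tested.

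Compared with chow, WTD raised all 3 mu class members and lowered Gsta3, Gstt1 and Gstk1. A gene was called when the Benjamini-Hochberg adjusted p of edgeR's quasi-likelihood test, taken over all tested genes, was under 0.01. Called on WTD against chow were 3 members higher and 3 lower of 10, where 33.5% of all tested genes were called, 17.5% higher and 16.0% lower. The median log2 fold change of the members was 0.15, and that of all tested genes 0.03. With atorvastatin against WTD, 2 members were higher and 0 lower of 10, where 7.10% of tested genes were called, 4.84% higher and 2.26% lower. At an unadjusted p under 0.05 edgeR gave 3 members higher and 0 lower, and the share of all tested genes at this threshold was not determined. At an adjusted p under 0.01 DESeq2 and limma-voom each called 2 higher and 0 lower. Over all genes DESeq2 called 1400 (712 higher) and limma-voom 3118 (1819 higher). The members' median was 0.12 and that of all tested genes 0.0016. Of all called genes in this comparison 68.2% were higher. This share moved with the setting, from 50.9% by DESeq2 to 69.8% with no filter. It was 52.8% with only these 2 groups fitted and 54.9% with RLE scaling. With atorvastatin against chow, 3 members were higher and 3 lower, where 25.0% were called, 14.2% higher and 10.7% lower, and the medians were -0.02 and 0.04. The 3 comparisons share their mice in pairs, so they are not independent of each other. All p-values rest on the spread between mice, taken as independent. The paper states that the mice were group-housed, and the labels give no cage, so effects of a shared cage could not be separated.

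**Figure D1:**
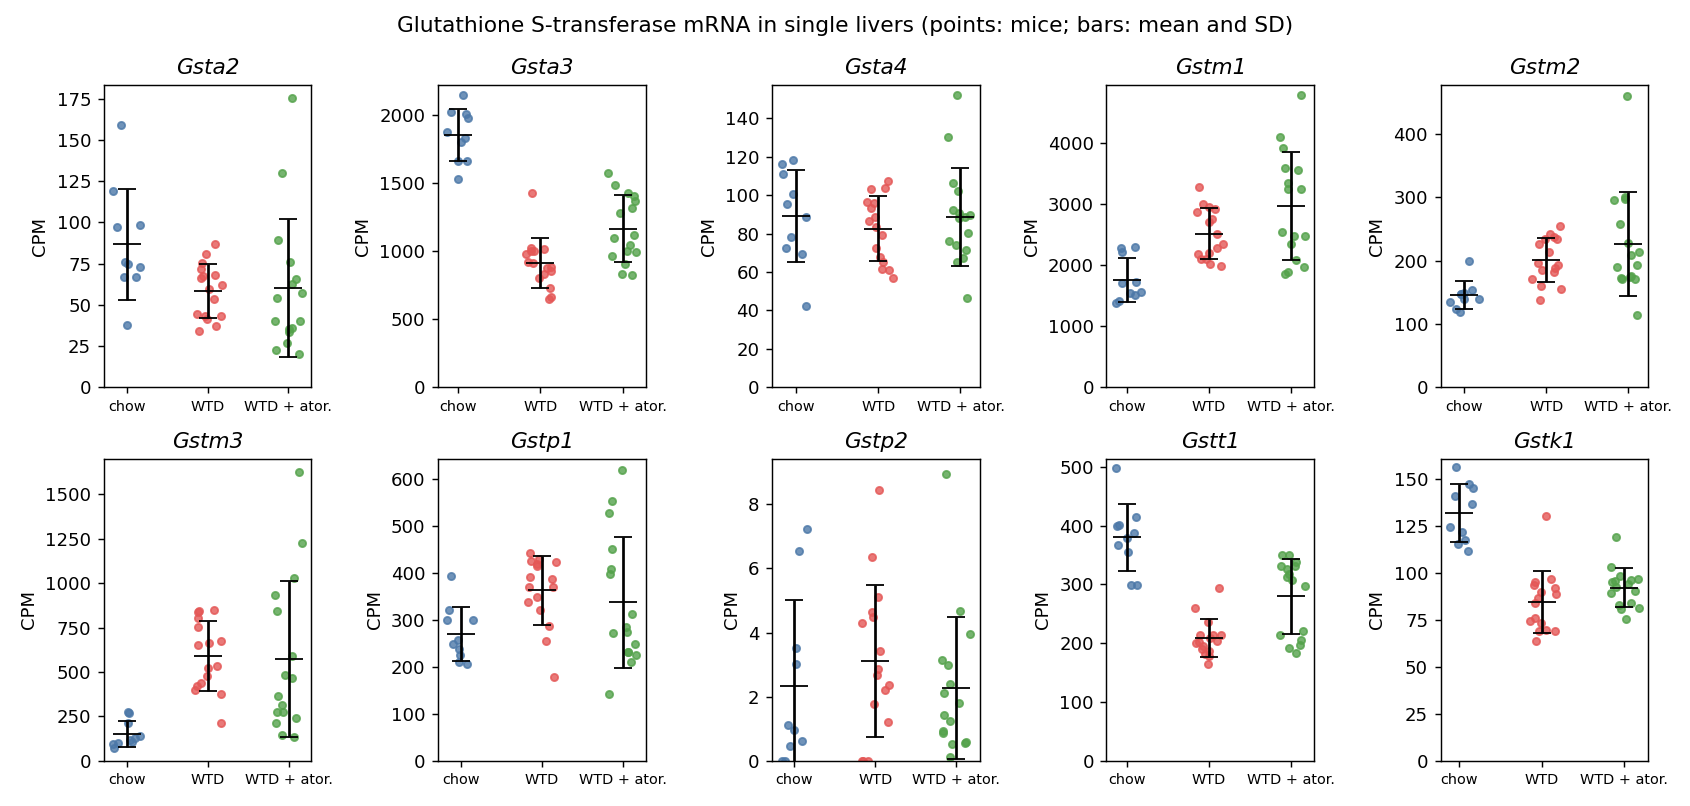
Level of each of the 10 transferases in CPM (linear axis from 0, a different scale per panel) in chow-fed (n = 10), WTD-fed (n = 16) and atorvastatin-treated (n = 16) mice. Points are mice and bars show the mean and SD, cut off at 0 for Gstp2. For Gsta3 and Gstt1 every WTD-fed mouse lies below every chow-fed mouse, and Gstm3 spreads from 134 to 1622 CPM in the treated group.

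Gsta3 is the alpha class enzyme known in mice for inactivating the epoxide of aflatoxin. The lowest, median and highest Gsta3 levels were 1527, 1852 and 2144 CPM on chow, 650, 898 and 1426 CPM on WTD, and 824, 1106 and 1574 CPM with atorvastatin. All 16 WTD-fed mice were below all 10 chow-fed mice, and the highest of them, Gen20, stood clear of the rest of its group. Gsta3 was 2.03-fold lower on WTD (log2 fold change -1.02, SE 0.10, adjusted p = 2.3e-12). With atorvastatin it was 1.28-fold higher than on WTD (log2 0.36, SE 0.09, adjusted p = 0.0044), and 14 of 16 treated mice exceeded the WTD median. It remained lower than on chow (log2 -0.67, SE 0.10, adjusted p = 3.8e-07), with 15 of 16 treated mice under the lowest chow-fed mouse. The rise with atorvastatin was not called with RLE scaling (adjusted p = 0.0102), without the 8 libraries poor in weak genes (0.0426), or when the treated mouse Gen29 (0.0111) or Gen35 (0.0102) was left out.

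Gsta2, whose protein also reduces lipid hydroperoxides, was not called in any comparison. From the lowest mouse through the median to the highest its levels were 37.5, 75.3 and 159 CPM on chow, 33.8, 60.6 and 86.7 CPM on WTD, and 19.9, 47.0 and 176 CPM with atorvastatin. The groups overlapped, and the treated mice covered the widest range. The log2 fold change was -0.57 on WTD against chow (SE 0.27, adjusted p = 0.078), 0.05 with atorvastatin against WTD (adjusted p = 0.94) and -0.52 against chow (adjusted p = 0.13). In the last comparison limma-voom with library weights called it (log2 -0.84, adjusted p = 0.00578). Its near-copy Gsta1, which is no member, ranged from 0 to 15.6 CPM on chow and from 4.40 to 31.6 CPM on WTD. That was a log2 fold change of 1.74 (SE 0.60, adjusted p = 0.016), also not called.

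Gsta4, the alpha enzyme specialised on hydroxynonenal and related products of lipid peroxidation, was not called in any comparison either. Its levels (lowest, median, highest) were 42.3, 92.2 and 118 CPM on chow, 56.9, 84.9 and 107 CPM on WTD, and 46.3, 88.2 and 152 CPM with atorvastatin. The log2 fold changes were -0.11 (95% interval -0.39 to 0.17), 0.10 (-0.14 to 0.35) and -0.01 (-0.29 to 0.28) for WTD against chow, atorvastatin against WTD and atorvastatin against chow. The ratio of Gsta3 to Gsta4 within a library, which needs no scaling, was lower on WTD than on chow by a log2 difference of -0.96 (permutation test, two-sided, adjusted p = 0.00024 over 18 ratio tests). Gsta2 against Gsta3 moved the other way (log2 difference 0.51, permutation test, adjusted p = 0.046).

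Among the mu class genes Gstm3 had the largest fold change. In the lowest, median and highest mouse it stood at 72.8, 122 and 277 CPM on chow, 214, 592 and 851 CPM on WTD, and 134, 417 and 1622 CPM with atorvastatin. On WTD, 15 of 16 mice exceeded every chow-fed mouse, and the exception was Gen20 at 214 CPM. Gstm3 was 3.89-fold higher on WTD than on chow (log2 1.96, SE 0.35, adjusted p = 1.5e-05). Atorvastatin against WTD gave a log2 fold change of -0.04 (95% interval -0.61 to 0.52, adjusted p = 0.95). It was -0.71 by limma-voom with library weights (adjusted p = 0.0436). Against chow the treated mice were 3.77-fold higher (log2 1.91, SE 0.35, adjusted p = 3.3e-05). The means on WTD (591 ± 196 CPM, SD, n = 16) and with atorvastatin (573 ± 437 CPM, SD, n = 16) lay close together, while 4 treated mice exceeded all WTD-fed mice and 3 lay below all of them.

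Gstm1, the leading mu class enzyme of mouse liver, had the highest level of the 10. Between mice, its lowest, median and highest levels were 1383, 1630 and 2296 CPM on chow, 1978, 2427 and 3285 CPM on WTD, and 1858, 2890 and 4781 CPM with atorvastatin. All WTD-fed and all treated mice exceeded the chow median. The gene was 1.43-fold higher on WTD than on chow (log2 0.51, SE 0.13, adjusted p = 0.00099) and 1.68-fold higher with atorvastatin than on chow (log2 0.75, SE 0.13, adjusted p = 7.6e-06). Between atorvastatin and WTD the log2 difference was 0.24 (95% interval 0.02 to 0.46, adjusted p = 0.17).

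Gstm2, a further mu class enzyme, had lowest, median and highest levels of 119, 143 and 200 CPM on chow, 138, 194 and 254 CPM on WTD, and 114, 201 and 460 CPM with atorvastatin. In chow the mouse AZ5 stood apart at the top. Gstm2 was 1.38-fold higher on WTD (log2 0.47, SE 0.14, adjusted p = 0.0052) and 1.56-fold higher with atorvastatin than on chow (log2 0.64, SE 0.14, adjusted p = 0.00026), while the log2 difference between the diet-fed groups was 0.17 (adjusted p = 0.41). The call on WTD was lost when the chow-fed mouse AZ1 (adjusted p = 0.0111) or AZ4 (0.012) was left out.

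The 3 neighbours on chromosome 3 did not change to the same extent. Within a library, Gstm1 relative to Gstm3 was lower on WTD than on chow by a log2 difference of -1.49, and Gstm2 relative to Gstm3 by -1.55 (permutation tests, adjusted p = 9e-05 for both, from the smallest p that 100000 permutations can give). The ratio of Gstm1 to Gstm2 differed by 0.06 (permutation test, adjusted p = 0.55). With atorvastatin against WTD the ratio of Gstm1 to Gstm3 was higher by 0.54 (permutation test, adjusted p = 0.034), and that of Gstm2 to Gstm3 by 0.46 (adjusted p = 0.099 by the same permutation test).

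**Figure D2:**
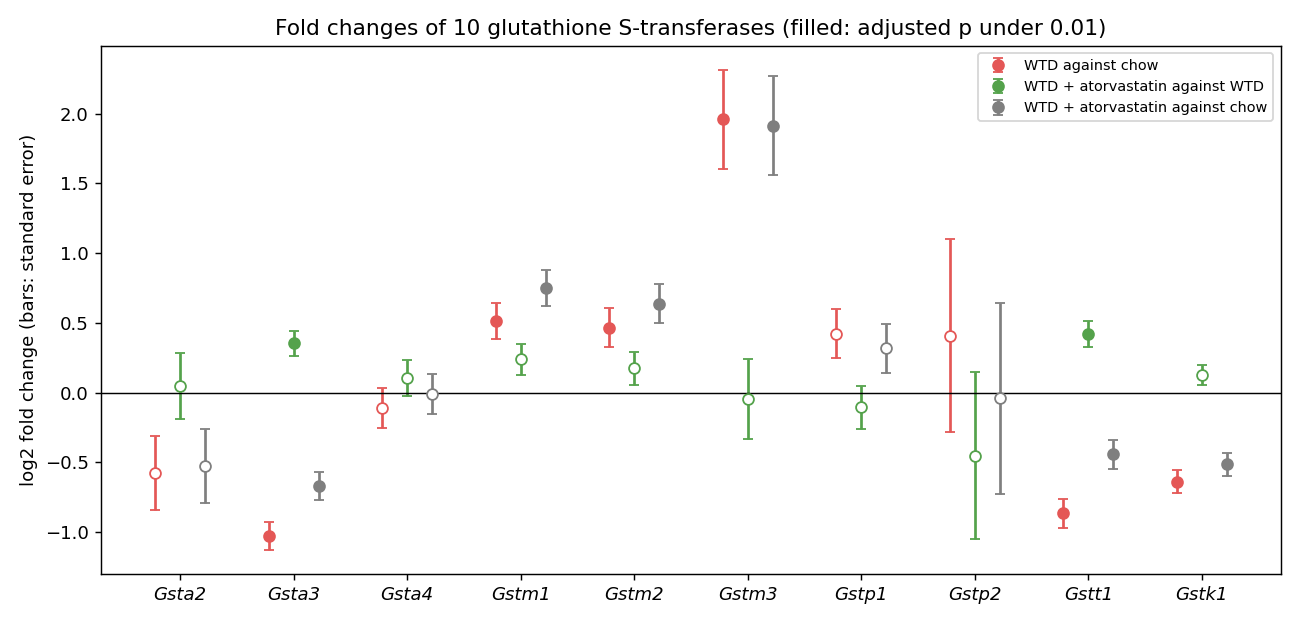
Log2 fold change of each transferase in 3 comparisons, with bars for the standard error from edgeR and filled points for an adjusted p under 0.01. Gstm3 is the highest on the axis in both comparisons with chow (1.96 and 1.91), and Gsta3 and Gstt1 lie below 0 against chow and above 0 with atorvastatin against WTD.

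Of the pi class genes, Gstp1 encodes the enzyme that also binds and inhibits stress kinases. Its lowest, median and highest levels were 207, 253 and 392 CPM on chow, 179, 378 and 441 CPM on WTD, and 143, 280 and 619 CPM with atorvastatin. On WTD, 15 of 16 mice exceeded the chow median, and Gen20 was below all chow-fed mice. The log2 fold change of 0.42 (SE 0.18) had an adjusted p of 0.046 and was not called. It was called when only the mice of these 2 groups were fitted (adjusted p = 0.00266). Atorvastatin differed from WTD by -0.10 (95% interval -0.40 to 0.19) and from chow by 0.32 (adjusted p = 0.16).

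Gstp2, the neighbour of Gstp1 with almost the same coding sequence, had the lowest level of the 10. Its highest level was 7.22 CPM on chow, 8.44 CPM on WTD and 8.96 CPM with atorvastatin, and the medians were 1.04, 2.77 and 1.61 CPM. It had no count in 5 libraries (2 chow, 3 WTD), of which 4 were among the 8 libraries poor in weak genes. The log2 fold changes were 0.41 (SE 0.69), -0.45 (SE 0.60) and -0.04 (SE 0.69) for WTD against chow, atorvastatin against WTD and atorvastatin against chow. None of these was called, and the 95% intervals ran from -0.95 to 1.77, from -1.63 to 0.73 and from -1.39 to 1.30. Counts did not follow the library totals in every case, since Gen20 had 0 and Gen11, with a smaller total, had 162. Of the weak genes 18.9% had no count in Gen20, just under the cut of 20%, and 40.7% in Gen11.

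Gstt1, the theta class enzyme known for acting on small halogenated compounds, fell on WTD and with atorvastatin lay between WTD and chow. Its lowest, median and highest levels were 299, 384 and 497 CPM on chow, 164, 202 and 294 CPM on WTD, and 183, 310 and 350 CPM with atorvastatin. Every WTD-fed mouse was below every chow-fed mouse, although the gap was narrow because Gen20 reached 294 CPM. Gstt1 was 1.82-fold lower on WTD (log2 -0.86, SE 0.10, adjusted p = 5.9e-10). It was 1.34-fold higher with atorvastatin than on WTD (log2 0.42, SE 0.09, adjusted p = 0.00095) and lower than on chow by a log2 fold change of -0.44 (SE 0.10, adjusted p = 0.00053). Of the treated mice, 10 exceeded all WTD-fed mice. Without the 8 libraries poor in weak genes the difference between atorvastatin and WTD was not called (log2 0.36, adjusted p = 0.0147).

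Gstk1, the mitochondrial and peroxisomal enzyme, had lowest, median and highest levels of 112, 131 and 156 CPM on chow, 64.1, 85.5 and 131 CPM on WTD, and 75.5, 93.3 and 119 CPM with atorvastatin. In each diet-fed group 15 of 16 mice were below every chow-fed mouse. Gstk1 was 1.56-fold lower on WTD (log2 -0.64, SE 0.08, adjusted p = 5.4e-09) and 1.43-fold lower with atorvastatin than on chow (log2 -0.51, SE 0.08, adjusted p = 1.5e-06). The log2 difference between both diet-fed groups was 0.13 (95% interval -0.02 to 0.27, adjusted p = 0.3). Groups that did not overlap at all were found for 2 of the 10 members on WTD against chow, Gsta3 and Gstt1, where 5.83% of tested genes showed this. In the other comparisons 0 members did, where 0.00642% (atorvastatin against WTD) and 4.37% (atorvastatin against chow) did.

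Levels of different genes were compared per kilobase of exon. On this scale the 10 members ranked as Gstm1, Gsta3, Gstt1, Gstp1 and Gstm3 from the top on chow, and as Gstm1, Gstm3, Gstp1, Gsta3 and Gstt1 on WTD. This order turned with the length used. Per kilobase of the longest coding transcript Gsta3 came second in all groups, and on WTD Gstm3 stood just below Gstp1, while on chow it fell below Gstk1 and Gstm2. Per kilobase of exon Gstm1 was first in every group with 1196 ± 245 (SD, n = 10), 1706 ± 282 (n = 16) and 2013 ± 601 (n = 16) CPM per kb, above the second gene in every mouse. On chow the neighbours from Gstt1 down to Gsta4 overlapped between mice, for example Gstm3 exceeded Gstk1 in 5 of 10 mice. On WTD all neighbours from Gstm3 to Gsta2 overlapped in range. Of the summed CPM per kb of the members, Gstm1 made up 47.9% ± 3.4 (SD) on chow, 56.3% ± 2.2 on WTD and 58.4% ± 2.2 with atorvastatin. Gsta3 made up 17.4% ± 2.6, 7.00% ± 1.5 and 8.68% ± 3.6, Gstt1 10.2% ± 2.0, 4.60% ± 0.95 and 5.98% ± 2.5, and Gstm3 4.48% ± 1.5, 14.6% ± 3.2 and 11.3% ± 5.4. The shares depend on the length used. The exons of Gsta3 together are 4344 bases and its longest coding transcript 1457, and with the latter for all genes its shares were 27.4%, 12.1% and 14.5%. Those of Gstm3 were then 2.39%, 8.54% and 6.56%, so that on WTD Gstm3 was above Gsta3 only by exon length. Summed in CPM, all 10 together came to 0.487% ± 0.059 (SD) of the scaled library size on chow, 0.501% ± 0.076 on WTD and 0.579% ± 0.14 with atorvastatin. Because CPM use TMM-scaled sizes, these are not shares of the raw counts.

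**Figure D3:**
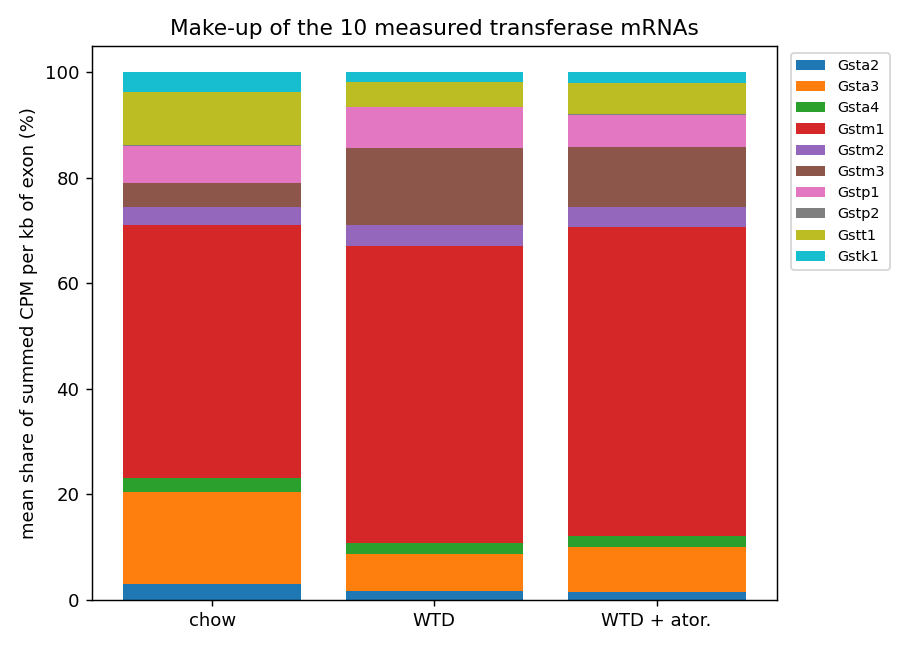
Mean share of each transferase in the summed CPM per kilobase of exon of all 10, in percent, for each group (stacked from 0 to 100). Gstm1 is the widest band in each group (47.9%, 56.3% and 58.4%), and from chow to WTD the band of Gsta3 shrinks from 17.4% to 7.00% while that of Gstm3 widens from 4.48% to 14.6% (27.4% to 12.1% and 2.39% to 8.54% by the longest coding transcript).

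Inside groups, some members varied together between mice. All 45 pairs in each of the 3 groups were correlated on log2 CPM, and p-values were adjusted over these 135 correlations. At an adjusted p under 0.05 by Pearson's r, 7 pairs were positive and 1 negative on chow, and 9 positive and 0 negative on WTD. On chow, Gsta2 and Gstm3 had r = 0.93 and rho = 0.95 (permutation test, n = 10, adjusted p = 0.00019 and 0.0016), and r was 0.93 without the 2 mice farthest from the median of Gsta2. On WTD, Gsta4 and Gstm3 had r = 0.82 and rho = 0.87 (permutation test, n = 16, adjusted p = 0.0012 and 0.00077, r = 0.75 without the 2 farthest mice). On WTD, Gsta3 and Gstk1, both lower than on chow, had r = 0.79 and rho = 0.73 (permutation test, n = 16, adjusted p = 0.0027 and 0.0097, r = 0.65 without the 2 farthest mice).

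With atorvastatin the levels of Gstt1 fell into separate ranges, 183 to 221 CPM in 6 mice and 297 to 350 CPM in 10 mice. Gstm1, Gstm3, Gstp1 and Gstp2 did not overlap between the same 6 and 10 mice either (398 to 619 CPM against 143 to 313 CPM for Gstp1). These sets of mice were cut at the widest gap in Gstt1. The share of all tested genes that separate the same mice was not determined, so this is no trait particular to the members. Over all 16 treated mice, 20 of 45 pairs were positive and 8 negative at an adjusted p under 0.05 by Pearson's r. These p-values were adjusted over the 135 correlations, and the values include the gap between the sets. The pairs were therefore also correlated inside each set, a choice made after seeing the data, with p-values adjusted over all 90 correlations. The sets were cut by the level of Gstt1, itself a member, so the values inside them depend on that cut. Among the 10 mice with higher Gstt1, 7 of 45 pairs were positive and 0 negative at an adjusted p under 0.05 by Pearson's r. Gstm1 and Gstm3 had r = 0.93 and rho = 0.98 there (permutation test, adjusted p = 0.009 and 0.0036, r = 0.89 without the 2 farthest mice). Gstm3 and Gstp1 had r = 0.87 and rho = 0.92 (permutation test, adjusted p = 0.0063 and 0.016, r = 0.81 without the 2 farthest mice). Among the 6 other mice 1 pair of 45 passed, Gsta2 with Gsta4 (r = 0.99, rho = 1.00, exact permutation test, adjusted p = 0.025 and 0.05, r = 0.94 without the 2 farthest mice). In these 6 mice Gstm1 and Gstm3 had r = 0.87 (exact permutation test, adjusted p = 0.15, r = 0.39 without the 2 farthest mice) and Gstm3 and Gstp1 had r = 0.70 (exact permutation test, adjusted p = 0.35, r = 0.51 without the 2 farthest mice). Gsta3 and Gstp1 had r = -0.26 in the 10 mice (permutation test, adjusted p = 0.8) and r = 0.23 in the 6 (exact permutation test, adjusted p = 0.86). Over all 16 treated mice, with the gap included, this pair had r = -0.75 and rho = -0.74 (permutation test, adjusted p = 0.0052 and 0.0078).

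The mice behind these patterns can be named. The 6 treated mice at the bottom of Gstt1 were Gen22, Gen23, Gen24, Gen25, Gen28 and Gen36, and the same 6 were the highest of their group in Gstm1, Gstm3, Gstp1 and Gstp2. Their summed hepatocyte markers, 62529 to 85959 CPM, were also the 6 lowest of the group. Alb made up most of each sum. It stood at 80018 to 103696 CPM in the rest of the group and at 47555 to 65847 CPM in these 6 mice. Their sums for stellate cells and fibroblasts, 1544 to 2345 CPM, were the 6 highest, and for cholangiocytes, at 363 to 610 CPM, they ranked between 1 and 7 of 16. For macrophages 4 of the 6 held the highest 4 places (2421 to 2966 CPM) and the others, Gen24 and Gen28, ranked 12 and 10. The part of this in the members' levels was not tested. On WTD, Gen20 was the lowest of its group in Gstm3, Gstp1 and Gsta4 and the highest in Gsta3, Gstt1 and Gstk1. Gen20 also had the highest sum of hepatocyte markers of the 16 (106159 CPM) and the lowest sums for cholangiocytes (183 CPM), macrophages (2291 CPM) and stellate cells and fibroblasts (1005 CPM). Without Gen20 and without each other mouse in turn, the calls of Gstm1, Gstm3, Gsta3, Gstt1 and Gstk1 on WTD against chow stayed as they were.

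**Figure D4:**
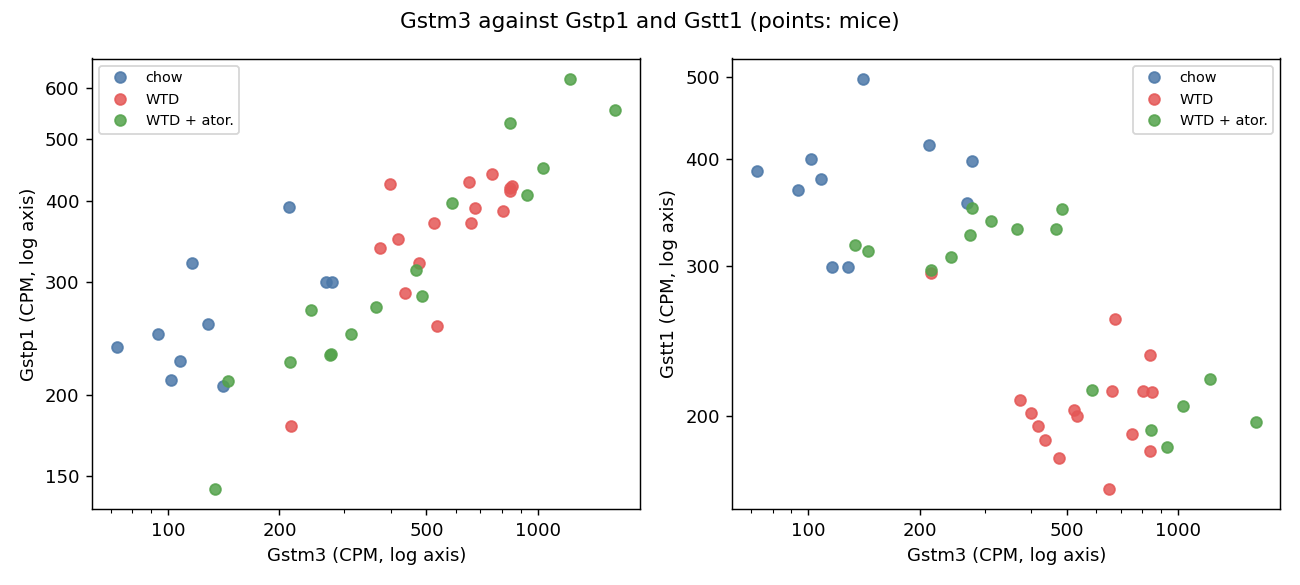
Gstm3 against Gstp1 (left) and against Gstt1 (right) in CPM, all on log axes, with a point for each mouse of the 3 groups. Treated mice run from 134 to 1622 CPM in Gstm3 with rising Gstp1, and 6 of them lie between 183 and 221 CPM in Gstt1 while the other 10 lie between 297 and 350 CPM.

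**Figure D5:**
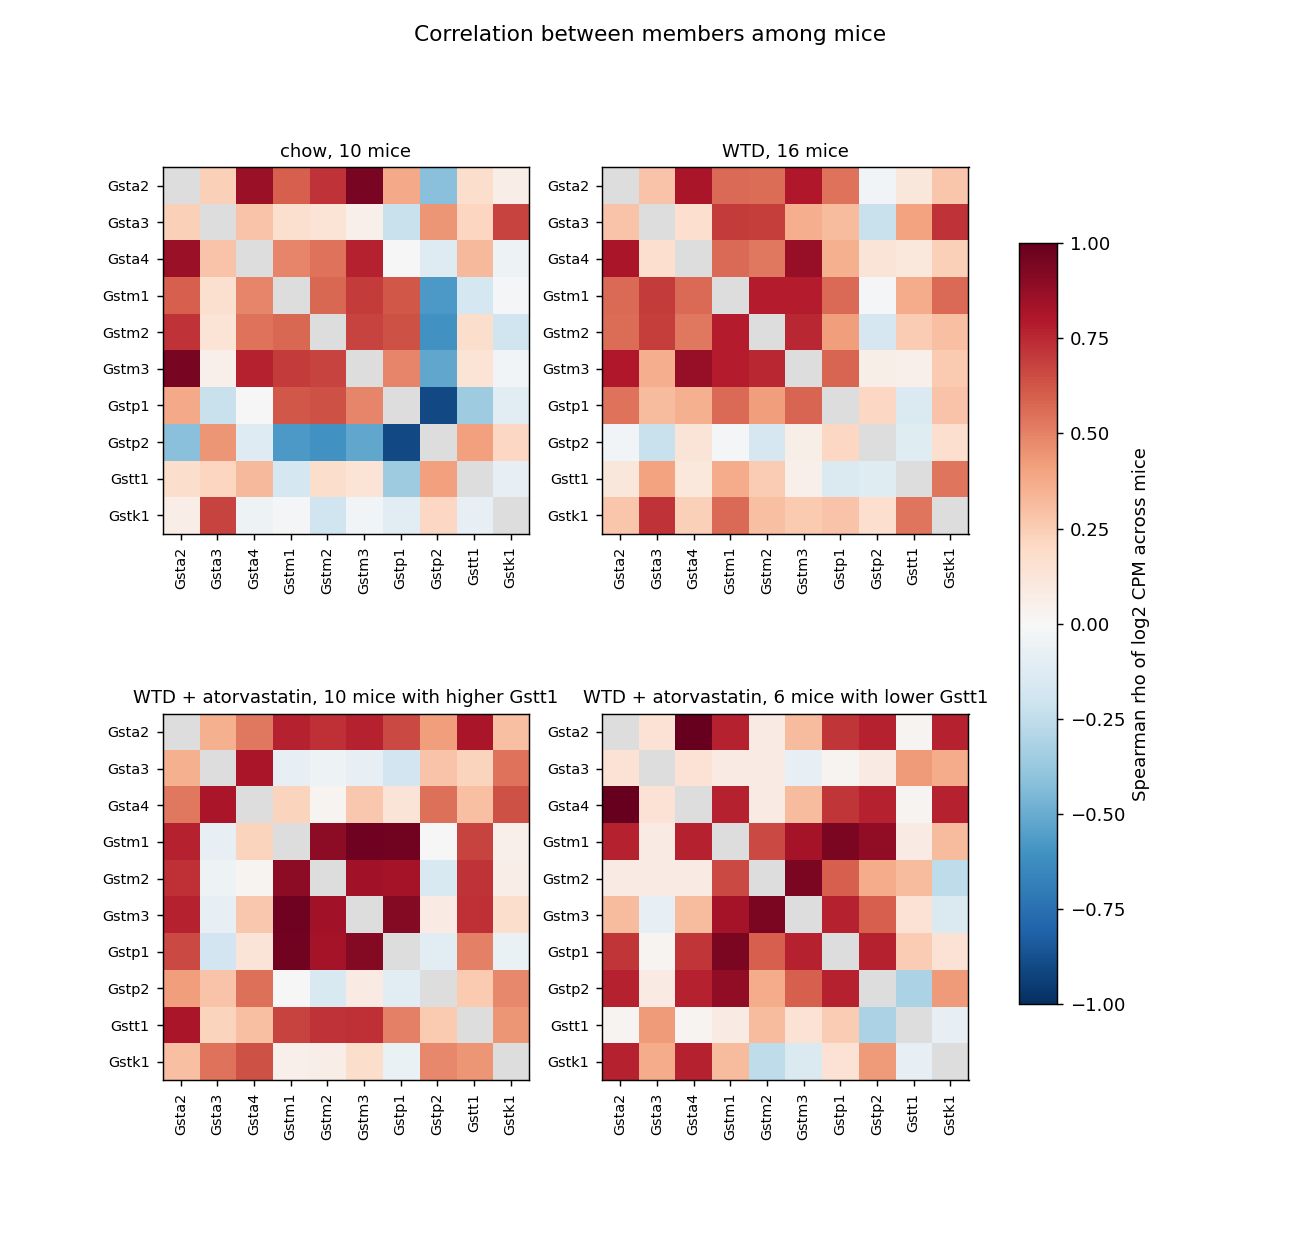
Spearman's rho between each pair of transferases across mice (colour from -1 to 1, grey on the diagonal), with the treated mice split by their Gstt1 level into 10 and 6. In the 10 treated mice Gstm1, Gstm3 and Gstp1 are dark against each other (rho 0.92 to 0.98), and on chow the pair of Gstp1 and Gstp2 is the most negative (rho -0.90).

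Gstp1 and Gstp2 were negatively correlated on chow, with r = -0.79 and rho = -0.90 (permutation test, n = 10, adjusted p = 0.029 and 0.0063, r = -0.83 without the 2 farthest mice). On WTD r was 0.53 (permutation test, n = 16, adjusted p = 0.087, r = -0.16 without the 2 farthest mice). Over all 16 treated mice r was 0.83 (permutation test, adjusted p = 0.0016, r = 0.77 without the 2 farthest mice), which includes the gap between the sets. Inside the treated sets r was 0.30 in the 10 mice (permutation test, adjusted p = 0.75) and 0.67 in the 6 (exact permutation test, adjusted p = 0.35). Gstp2 had at most 113 counts per library on chow and no count in some of them, and both genes share windows of sequence. Of the 10 chow libraries 3 were among the 8 poor in weak genes, and the part of this in the negative correlation was not tested.

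The genes outside the 10 whose levels across the 42 mice were most like each member, after removal of the group means, are given as a description. For Gstm3 they were Srxn1 (r = 0.91, rho = 0.86), which repairs oxidised peroxiredoxins, and Ugdh (r = 0.89, rho = 0.87), which makes the sugar donor for glucuronidation. For Gstp1 they were Srxn1 (r = 0.89) and Gsta1 (r = 0.86), for Gstm1 Gsta1 (r = 0.85) and Ugdh (r = 0.84), for Gsta2 Ugdh (r = 0.84) and Gsta1 (r = 0.78), and for Gsta4 Ugdh (r = 0.67) and Nsd2 (r = 0.60). Gstm2 was nearest to Gstm4 (r = 0.74) and Aldh1a7 (r = 0.72). Gsta3 was nearest to Gstz1 (r = 0.91) and Ahcy (r = 0.89), enzymes of tyrosine and methionine breakdown. Gstt1 was nearest to Hgfac (r = 0.89) and Haao (r = 0.89), Gstk1 to Dbt (r = 0.75) and Fh1 (r = 0.68), and Gstp2 to Csrp2 (r = 0.70) and Tuba1b (r = 0.68). Srxn1, Ugdh, Gsta1, Gstz1 and Hgfac did not overlap between the 6 and the 10 treated mice. The same held for Gstm1, Gstm3, Gstp1 and Gstp2, and for Gstt1, which set the cut. This gap enters these values. The points share their libraries and, for Gsta2 and Gsta1, near-identical sequence. Srxn1 had lowest, median and highest levels of 47.6, 65.1 and 107 CPM on chow, 57.6, 194 and 230 CPM on WTD, and 50.3, 117 and 469 CPM with atorvastatin.

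Of 17 further transferase genes, 16 were in the table and 13 were tested. On WTD against chow 1 was higher and 4 were lower. The higher one was Hpgds (log2 3.08, SE 0.35, adjusted p = 7.4e-10), the prostaglandin D synthase of immune cells. Lower were Gsto1 (-0.91), Gstt2 (-0.82), Gstz1 (-0.79) and Gstm7 (-0.65), the last also in the mu cluster on chromosome 3. With atorvastatin against WTD, Gstz1 (0.39), Gstm7 (0.32) and Gsto1 (0.29) were higher and 0 lower. Against chow 1 was higher and 3 were lower. The mu cluster was thus split on WTD, with Gstm1, Gstm2 and Gstm3 higher, Gstm7 lower, and Gstm4 (-0.26), Gstm5 (-0.04) and Gstm6 (-0.26) not called. Among 6 membrane-bound enzymes of the MAPEG family, 1 was higher and 2 were lower on WTD. Mgst1, the microsomal transferase, fell (log2 -0.71, SE 0.08, adjusted p = 2.8e-11) and Alox5ap rose (1.51). With atorvastatin against WTD 0 of 6 passed by edgeR, also at an unadjusted p under 0.05, by DESeq2 and by limma-voom. Against chow 0 were higher and 2 lower.

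Of 15 genes of glutathione synthesis and recycling, 2 were higher and 4 lower on WTD, 1 higher and 0 lower with atorvastatin against WTD, and 2 higher and 4 lower against chow. Chac2 (-0.87) and Oplah (-0.63), which break down glutathione and recycle oxoproline, were lower on WTD, and Oplah was higher with atorvastatin (0.33). Of 10 glutathione peroxidases and glutaredoxins, 3 were higher and 2 lower on WTD, 0 and 2 with atorvastatin against WTD, and 2 and 2 against chow. Gpx1 fell on WTD (-0.72), while Gpx3, the secreted peroxidase, was 5.67-fold higher on WTD and lower with atorvastatin than on WTD (-1.15), as was Gpx4 (-0.51). Of 14 tested genes of conjugate export and mercapturate formation, 5 were higher and 7 lower on WTD, 3 and 0 with atorvastatin against WTD, and 6 and 4 against chow. The acetyltransferase gene Nat8f1 (-1.45) and the transporter Abcc6 (-0.91) were lower on WTD. The conjugate pump Abcc2 (0.45) and the deacylase Acy3 (0.57) were higher with atorvastatin than on WTD.

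Among 14 genes of NRF2, its partners and classical targets other than transferases (3 of which also stand in the synthesis list), 9 were higher and 2 lower on WTD, 0 and 0 with atorvastatin against WTD, and 9 and 0 against chow by edgeR. With atorvastatin against WTD, 3 were higher and 0 lower at an unadjusted p under 0.05, and DESeq2 called 0 and limma-voom 2. Nfe2l2, the gene of NRF2, rose 0.40 on the log2 scale on WTD (SE 0.08, adjusted p = 3.8e-05). Its inhibitor Keap1 was not called (-0.23). Hmox1 (1.56) and G6pdx (2.04) were higher. Of 11 genes of CAR, PXR, AHR and their P450 targets, 0 were higher and 10 lower on WTD, 3 and 0 with atorvastatin against WTD, and 0 and 6 against chow. Nr1i3, the CAR gene, fell by 1.46 on WTD, Nr1i2, the PXR gene, by 0.44 and Ahr by 0.44 (log2 scale). Cyp2b9 (-1.78 on WTD, 0.94 with atorvastatin against WTD) and Cyp1a2 (-1.02 and 0.78) had the smallest p-values of that list. Of 9 tested pericentral hepatocyte genes 0 were higher and 7 lower on WTD, 3 and 0 with atorvastatin against WTD, and 0 and 4 against chow, Rgn among them (-0.90 and 0.40 in the first 2). Of 10 periportal genes 0 were higher and 9 lower on WTD, 8 and 0 with atorvastatin against WTD, and 0 and 2 against chow, with Cyp2f2 (-2.58 and 1.62) and Hal (-2.05 and 1.24) in front. The other tools gave partly different counts with atorvastatin against WTD: limma-voom called 8 higher and 0 lower in the list of CAR, PXR and AHR, 7 and 0 in the pericentral, 6 and 1 in the export, 0 and 4 in the peroxidase and 4 and 1 in the further transferase list. DESeq2 called 3 and 0, 3 and 0, 3 and 1, 0 and 4, and 1 and 0 in the same lists. Over all genes limma-voom called 3118 in this comparison and DESeq2 1400, against 1106 by edgeR, so the list counts differ in background too. The lists were chosen with earlier results of these data known, so their direction is a description.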

How the data were processed

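Strand-specific libraries of polyadenylated liver RNA were sequenced in pairs of 150-base reads. The authors trimmed with Trimmomatic, aligned to GRCm38 with STAR 2.5 and GENCODE vM19, and deposited counts per gene from HTSeq 0.6.1p1, not normalized. The strand setting is not given in the sources used here. The merged table equalled the 42 single tables, and 0 columns were unused. Read pairs in no gene (2.00% to 2.78%), ambiguous (5.43% to 6.57%) or not uniquely aligned (4.07% to 5.36%) were left out. Symbols, positions and lengths came from GENCODE vM21 (54409 of 54446 identifiers).

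Genes were filtered (filterByExpr, minimum count 10, minimum total 15), scaled by TMM and tested with edgeR 4.0.16 (quasi-likelihood, robust) in R 4.3.3, all 42 mice in 1 fit without covariates since the labels give no batch. CPM use TMM-scaled sizes. SE is the log2 fold change divided by the root of F, and intervals (95%) use the normal quantile. Ratios (0.5 added to each count) and correlations (log2 of CPM + 0.5) used 100000 permutations. Scripts were tested on simulated data. Alternatives were DESeq2 1.42.0, limma-voom (limma 3.58.1), other scalings, filters, thresholds and sample sets. Gene names in the text follow the members, lists (each called transferase, and elsewhere the 2 smallest p-values per comparison and 5 named regulators) and 2 genes most like each member. Members and lists were chosen with earlier results of these data known. The correlations of treated mice inside the 2 ranges of Gstt1, beside those of the whole group, were chosen after seeing the data.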

Additional observations from a re-analysis of the deposited data

Results flagged for a closer look

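In the chow group the highest level of Gstm2, 199.97 CPM in the mouse AZ5, stood farther from the next mouse than Dixon's 95% limit allows for 10 samples. Of the 10 members this was tested only on chow, since the diet-fed groups hold more than 10 mice, and chance gives such a gap in about 1 group in 20. The library of AZ5 was among the 8 with more than 20% of weak genes without a count, and the part of this was not tested. Leaving out AZ5 did not end the call of Gstm2 on WTD against chow.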

How the results depend on the processing

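No paired analysis was possible because the replicate numbers only follow the order of the samples and tie no mouse of one group to a mouse of another. Leaving out each mouse in turn gave 4952 to 5384 called genes on WTD against chow, 913 to 1575 with atorvastatin against WTD and 3651 to 4101 against chow, and 5 to 6, 1 to 2 and 6 to 6 called members. With atorvastatin against WTD, 1 member was called without Gen29 or Gen35, with RLE scaling 1, and without the 8 libraries poor in weak genes 0 (775 genes called). For a log2 fold change of at least 1 as a further condition, 2151 genes and 2 members were called on WTD against chow, 100 and 0 with atorvastatin against WTD, and 1288 and 1 with atorvastatin against chow. At an adjusted p under 0.05, 2021 genes were called with atorvastatin against WTD, and limma-voom called 3118 at 0.01. The causes were not tested.

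Directions turned only where no call was made. For Gsta4 the log2 difference between atorvastatin and chow became 0.0053 with no filter, 0.0075 with at least 10 counts in every mouse, 0.074 without the 8 libraries and 0.051 with their dropout as a covariate. On WTD against chow Gsta4 became 0.017 without the 8 libraries and 0.0032 by limma-voom, and with atorvastatin against WTD -0.088 by limma-voom. Gsta2 with atorvastatin against WTD became -0.020 without the 8 libraries and -0.50 by limma-voom. Gstp2 with atorvastatin against chow became 0.043 without the 8 libraries, 0.079 with the covariate and 0.13 by limma-voom, and it was not tested under the filter of 10 counts in every mouse. The ratio of Gstp1 to Gstp2 with atorvastatin against WTD became 0.012 with 5 added counts. With 1 mouse left out, ranges that crossed 0 were -0.089 to 0.046 (Gsta4) and -0.36 to 0.34 (Gstp2) for atorvastatin against chow, and -0.15 to 0.11 (Gsta2) and -0.23 to 0.027 (Gstm3) for atorvastatin against WTD. Of 1260 member values with a mouse left out, 1225 kept direction and side of the threshold, as did 358 of 387 under the other settings. Gstp2 had counts of 0 to 242.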

Other observations

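Gsta1 and Gm3776, near-copies of Gsta2 on chromosome 9, share stretches of sequence with it, and no difference in either was called. Gsta1 had lowest, median and highest levels of 0, 4.44 and 15.6 CPM on chow, 4.40, 17.3 and 31.6 CPM on WTD, and 0.623, 8.63 and 59.9 CPM with atorvastatin. For Gm3776 these were 0.422, 2.56 and 22.2 CPM, 1.44, 12.1 and 23.4 CPM, and 1.70, 6.60 and 48.2 CPM. In both genes the treated mouse Gen23, the highest of all 42 in Gstm3, was also the highest.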
